A study of Mus musculus with 6 samples.

Results

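The 3 miRNAs described here are mmu-miR-185-5p, mmu-miR-1947-3p and mmu-miR-450a-2-3p (written below without the species prefix), out of 1247 mouse miRNAs on the array. They were chosen from the authors' deposited table of processed values. There they shifted one way with triple stimuli against control, and the opposite way once rapamycin was added. Those table shifts are therefore a description and carry no test. The samples were cultures of mProx24, a proximal tubular cell line from mouse kidney (strain C57B6), with 1 Agilent miRNA array of each condition and no replicates. Of the conditions, triple stimuli plus rapamycin combined high glucose, 150 µM palmitate on 0.15% albumin for 9 h and 1% oxygen for 12 h, after 12 h of 0.4 µg/ml rapamycin. Triple stimuli had the same 3 stresses without the drug. Hypoxia had 1% oxygen alone, palmitate and high glucose had 1 stimulus each at 20% oxygen, and the control had none. The labels give albumin only with palmitate, so the 2 cannot be told apart. All 6 arrays lay on 1 slide, with the 1% oxygen arrays in one row of it and the 20% oxygen arrays in the other.

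A mature miRNA is cut from a hairpin precursor and pairs with target messenger RNAs mainly through its seed, bases 2 to 8, which lowers their translation and stability. Rapamycin inhibits mTORC1, the kinase complex that couples nutrients to growth. miR-185-5p is known from human cancer cells to repress RHOA and CDC42, GTPases of the actin cytoskeleton. miR-450a-2-3p is the 3′ arm of a hairpin in the X-linked cluster that also makes miR-322 and miR-503, regulators of the cell cycle.

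The array reads each miRNA with several DNA probes that pair with its 3′ end and differ in length by single bases. They are shown because the table values turn on which probes were summed. Capitals mark the bases that a longer probe has beyond the shortest one.
miR-185-5p, 16-base probe: tcaggaactgcctttc
miR-185-5p, 17-base probe: tcaggaactgcctttcT
miR-1947-3p, 14-base probe: ggagggagagctag
miR-1947-3p, 15-base probe: ggagggagagctagC
miR-450a-2-3p, 17-base probe: atgaatgcaaagcatcc
miR-450a-2-3p, 18-base probe: atgaatgcaaagcatccC
miR-450a-2-3p, 19-base probe: atgaatgcaaagcatccCC
miR-450a-2-3p, 20-base probe: atgaatgcaaagcatccCCA

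Of the members, RefSeq (GRCm38.p6) listed the mature forms of miR-1947-3p and miR-450a-2-3p, shown here with the seed in capitals and with miR-450a-1-3p, the matching arm of the neighbouring hairpin.
miR-1947-3p: gCACUGAGcuagcucucccucc
miR-450a-2-3p: aUUGGGGAugcuuugcauucau
miR-450a-1-3p: aUUGGGAAcauuuugcauaaau
The 2 miR-450a 3′ arms differed at 6 of 22 positions, 1 of them within bases 1 to 8. miR-1947-3p shared its seed with miR-674-5p and miR-3473d. Mir185 lies at chr16:18327401-18327465 on the minus strand, within the span of Tango2, and Mir1947 at chr16:33105361-33105445 on the plus strand, within the span of Lmln. Mir450-2, the gene of miR-450a-2-3p, lies at chrX:53048299-53048367 on the minus strand, with no longer RefSeq gene spanning it.

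The labels were checked before the members were compared. miR-210-3p, which low oxygen is known to induce through HIF in many cell types, had summed signals of 112, 108 and 130 on the triple stimuli plus rapamycin, triple stimuli and hypoxia arrays, against 9.57 for palmitate, 12.3 for high glucose and 10.5 for control. The scanner software called none of 4 proximal tubule, 5 epithelial, 3 blood cell or 2 fibroblast and smooth muscle marker miRNAs detected on any array, so the tubular identity given by the labels was not visible in these miRNAs. In the table, the column labelled palmitate held the array deposited under high glucose, and the column labelled high glucose the array deposited under palmitate. Which of the labels are right could not be worked out, so the names palmitate and high glucose may be exchanged in the spot and summed values below, which follow the deposited scanner files. The control, hypoxia, triple stimuli and rapamycin columns held their own arrays, so the exchange does not touch the steps that chose the members.

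In the authors' deposited table, miR-185-5p had a value of 0.458 with triple stimuli plus rapamycin, 0.273 with triple stimuli, 0.591 with hypoxia, 0.472 in the palmitate column, 0.576 in the high glucose column and 0.616 in the control. It was lower with triple stimuli than in the control by 2.26-fold (log2 -1.18) and higher with rapamycin than with triple stimuli by 1.68-fold (log2 0.75). The triple stimuli column was the lowest of the 6, and the next lowest was triple stimuli plus rapamycin.

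miR-1947-3p had the same shape in these 3 columns, at 0.328 with triple stimuli plus rapamycin, 0.173 with triple stimuli and 0.401 in the control. The steps were log2 -1.21 for triple stimuli minus control and 0.92 for rapamycin minus triple stimuli. It had 0.189 in hypoxia, 0.150 in the palmitate column and 0.00444, the floor of its column, in the high glucose column. The control and the rapamycin column were the highest of the 6.

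miR-450a-2-3p ran the other way. It had table values of 0.0775 with triple stimuli plus rapamycin, 0.187 with triple stimuli, 0.111 with hypoxia, 0.149 in the palmitate column, the floor in the high glucose column and 0.0994 in the control. The steps were log2 0.91 and -1.27. Triple stimuli was the highest of its columns.

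**Figure D1:**
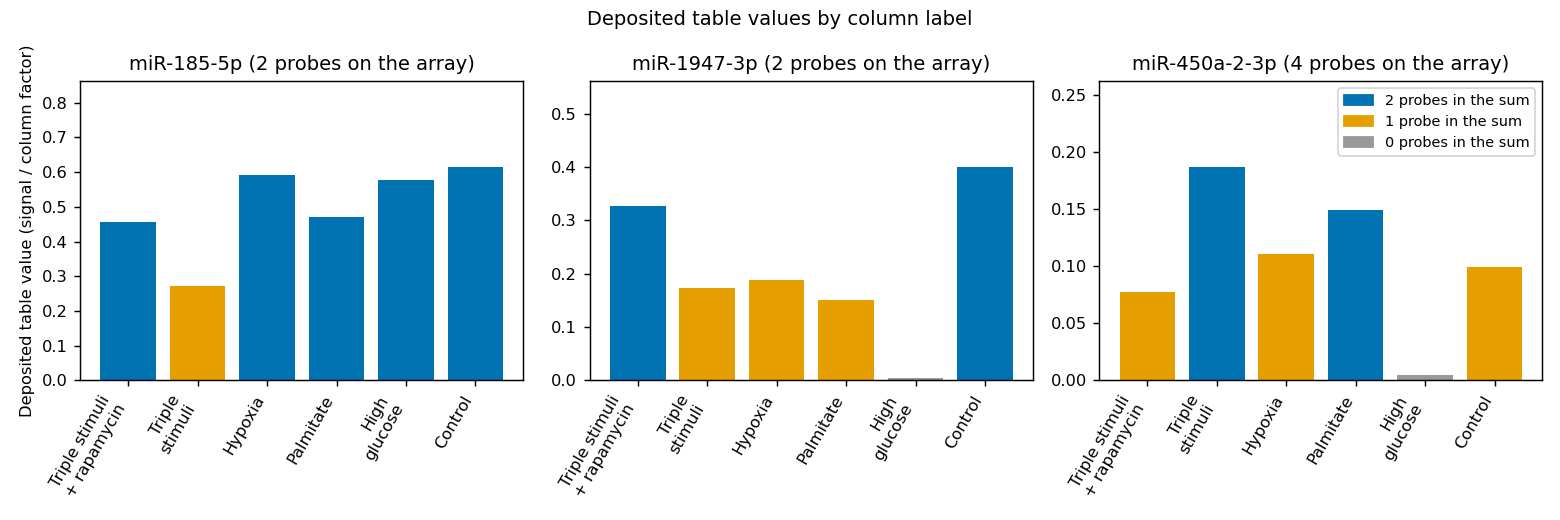
Deposited table value (vertical axis, signal divided by the column's factor, linear from 0) of each miRNA in the 6 columns, named by column label. Bar colour gives how many probes entered the sum: miR-185-5p rests on 1 probe with triple stimuli and on 2 in every other column, miR-1947-3p on 2 with triple stimuli plus rapamycin and in the control but on 1 with triple stimuli, and miR-450a-2-3p on 2 with triple stimuli but on 1 with triple stimuli plus rapamycin and in the control.

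The way the table was made could be read from the scanner files. For each probe the Agilent software gives a total signal and an error. For 100% of the 206 to 228 miRNAs above the floor in each of the 6 columns, the table value equalled, within 0.1%, the sum of those probes whose signal was at least 3 times its error, divided by 1 factor for the column. The sum over all probes, which the software itself reports for each miRNA, matched 68.7% to 73.5% of them. A miRNA with no probe at 3 errors stood at a floor of 0.1 before division. The factor was 28.8 for triple stimuli plus rapamycin, 27.1 for triple stimuli and 21.1 for control, and equalled the 90th percentile of the column's 1268 rows within 0.1%. A probe near 3 errors is thus counted in full in one column and left out of the next.

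Each of the 3 miRNAs had a probe that crossed this limit in both steps. The 16-base probe of miR-185-5p stood at 3.41 errors with triple stimuli plus rapamycin, 2.97 with triple stimuli and 3.69 in the control. It was left out of the triple stimuli sum alone. On the other arrays it read 3.95 in hypoxia, 3.44 in palmitate and 3.39 in high glucose. The 17-base probe was summed in all 6 columns, at 4.93 to 5.57 errors.

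For miR-1947-3p the crossing probe was the 14-base one, at 3.59 errors with triple stimuli plus rapamycin, 2.74 with triple stimuli and 3.11 in the control. The 15-base probe was at 3.40, 3.39 and 3.1 errors on the same arrays. On the palmitate array, the 14-base probe stood at 2.70 and the 15-base one at 2.89 errors, so neither was summed and the table shows the floor. No probe of miR-1947-3p passed 3.59 errors on any array.

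For miR-450a-2-3p the 20-base probe was at 2.99 errors with triple stimuli plus rapamycin, 3.998 with triple stimuli and 2.70 in the control. The 19-base probe was above the limit on all 3, at 3.30, 3.25 and 3.07 errors. Its 17-base and 18-base probes ran from -0.47 to 0.15 errors over the 6 arrays and entered no sum.

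**Figure D2:**
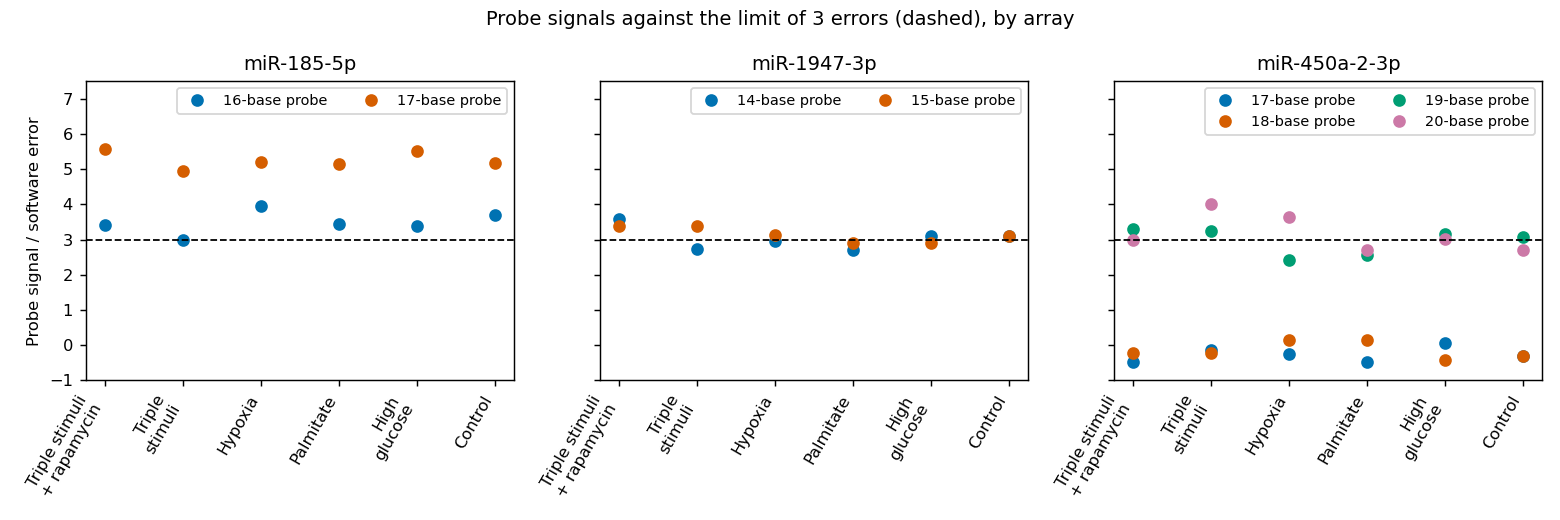
Total signal of each probe divided by the software's error (vertical axis) on the 6 arrays, named by the sample each was deposited under; the dashed line is the limit of 3 errors. Points of miR-1947-3p and of the 19-base and 20-base probes of miR-450a-2-3p lie on either side of the line, between 2.43 and 3.998.

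With all probes summed and no scaling between arrays, the lowest and highest arrays of each miRNA differed by less than their combined error. Divided by the table's factors, the sums differed more for 2 of the miRNAs. The triple stimuli step was then log2 -0.55 for miR-185-5p, -0.37 for miR-1947-3p and 0.09 for miR-450a-2-3p. The summed signal of miR-185-5p was 13.2 ± 2.05 (software error) with triple stimuli plus rapamycin, 11.4 ± 2.03 with triple stimuli, 13.4 ± 2.07 in hypoxia, 13.0 ± 2.12 in palmitate, 13.8 ± 2.17 in high glucose and 13.0 ± 2.06 in the control. Its lowest and highest arrays, triple stimuli and high glucose, differed by 2.37, less than their combined error of 2.96. The triple stimuli array was the lowest in these unscaled sums, which use the same probe signals as the table.

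The summed signal of miR-1947-3p was 9.44 ± 1.91 with triple stimuli plus rapamycin, 8.42 ± 1.94 with triple stimuli, 8.28 ± 1.92 in hypoxia, 7.79 ± 1.97 in palmitate, 8.49 ± 2.00 in high glucose and 8.45 ± 1.93 in the control. Triple stimuli minus control was -0.0279, with a combined error of 2.73. The whole range of 1.65 lay within the combined error of its ends, 2.75.

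miR-450a-2-3p had summed signals of 3.79 ± 1.30 with triple stimuli plus rapamycin, 4.84 ± 1.35 with triple stimuli, 4.07 ± 1.33 in hypoxia, 3.44 ± 1.36 in palmitate, 4.13 ± 1.38 in high glucose and 3.53 ± 1.32 in the control. In these unscaled sums, which use the same probe signals as the table, triple stimuli was the highest. It exceeded the control by 1.32 with a combined error of 1.89, and triple stimuli plus rapamycin minus triple stimuli was -1.06 with a combined error of 1.87.

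The table shift of each miRNA could be split exactly into the change in the all-probe sum, the change of the column factor and the change in which probes were summed. For triple stimuli minus control the factor gave log2 -0.36 to every miRNA. The shift of miR-185-5p, -1.18, held -0.18 from the all-probe sum and -0.63 from the probes left out. That of miR-1947-3p held -0.0048 and -0.84, and that of miR-450a-2-3p held 0.46 and 0.82. For rapamycin minus triple stimuli the factor gave -0.09. The parts from the sum and from the choice of probes were 0.20 and 0.63 for miR-185-5p, 0.16 and 0.84 for miR-1947-3p, and -0.36 and -0.83 for miR-450a-2-3p. The choice of probes was the largest part in all 6 shifts.

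**Figure D3:**
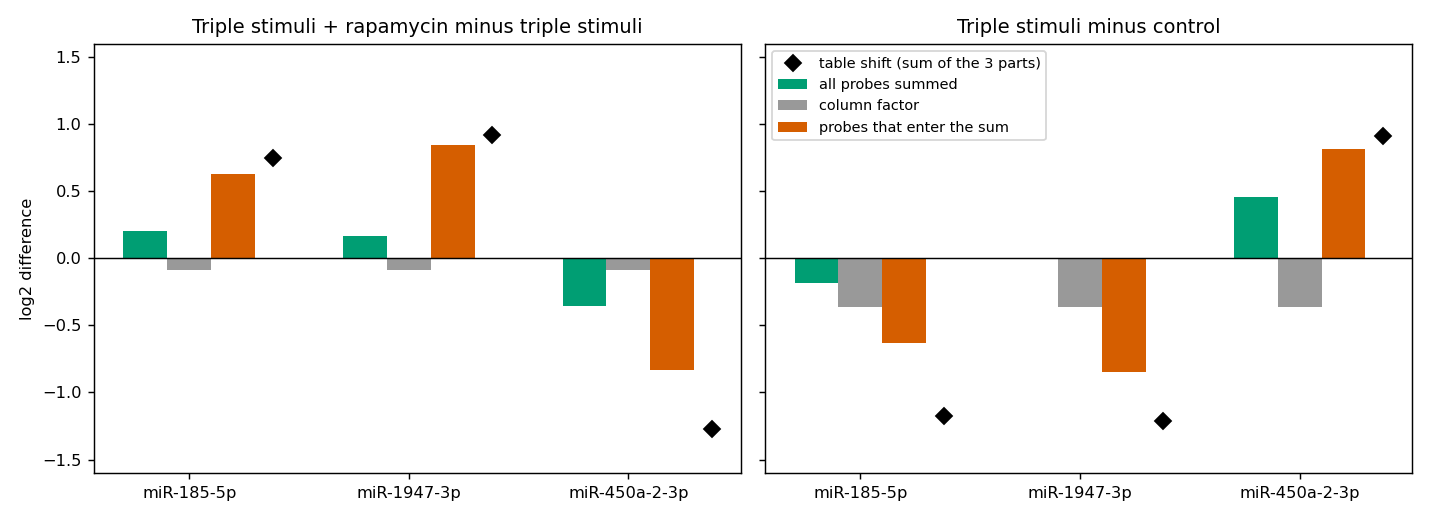
Parts of the table's log2 difference (vertical axis) for the rapamycin step (left) and the triple stimuli step (right). Bars show the change in the sum of all probes, in the column factor and in the probes that entered the sum; the diamond is their total, the table shift. The bar for the probes that entered the sum is the longest in each of the 6 cases, from 0.63 to 0.84 in size.

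With all probes summed and the table's own factors, the triple stimuli step was -0.55 for miR-185-5p, -0.37 for miR-1947-3p and 0.09 for miR-450a-2-3p, and the rapamycin step 0.12, 0.08 and -0.44. None of these 6 values reached 1.5-fold. The signs stayed opposite for each miRNA, in steps that share the triple stimuli array.

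Over the whole table, 235 miRNAs were above the floor in at least 1 of these 3 columns, and 11 of them (4.68%) shifted by 1.5-fold or more in opposite directions. That number includes the 3 members. In each of the 11 the set of summed probes changed in both steps, and with all probes summed, whether detected or not, 0 of the 11 kept opposite shifts of 1.5-fold. With the software's sum per miRNA and undetected miRNAs set to the floor, 8 miRNAs had opposite shifts, all 8 of them at the floor on 1 or 2 of the 3 arrays and 0 of them members. The other 8 of the 11 were at the floor in some column. A miRNA at the floor has no summed probe, so for these 8 the change of set in both steps followed by construction. miR-466i-3p, miR-128-3p, miR-290-3p and miR-191-3p were at the floor with triple stimuli alone. miR-452-5p, miR-450a-5p, miR-669c-3p and miR-193a-3p were above it with triple stimuli alone.

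Among the 205 miRNAs above the floor in all 3 columns, 3 (1.46%) had opposite shifts of 1.5-fold, which are the members. Of the 182 that kept the same probes in all 3 columns, 0 had opposite shifts of 1.5-fold in both steps. Of the 23 with other probes in a step or both, 6 changed probes in both steps, and the members are 3 of those. The next in order, by the smaller of the 2 shifts, were miR-19a-3p and miR-30e-3p, both outside the limit. miR-19a-3p had 0.35 for triple stimuli minus control and -0.59 for rapamycin minus triple stimuli, with 2 probes throughout. miR-30e-3p had 0.30 and -0.52, with 2 probes for triple stimuli and 1 in the other columns. For miR-185-5p, the nearest inside the limit, the smaller of the 2 shifts was 0.75. Past 1.5-fold in the triple stimuli step were 45 miRNAs of the table, 32 of them with another set of probes. In the rapamycin step there were 31, of which 25 had another set. These counts include moves to or from the floor, which change the set by construction. Over all miRNAs above the floor in either column of the step, the set changed in 40 of 228 and in 31 of 233. Among the 205, the 23 with other probes gave 12 past 1.5-fold in the triple stimuli step, and the 182 gave 11. In the rapamycin step each of these groups gave 4.

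**Figure D4:**
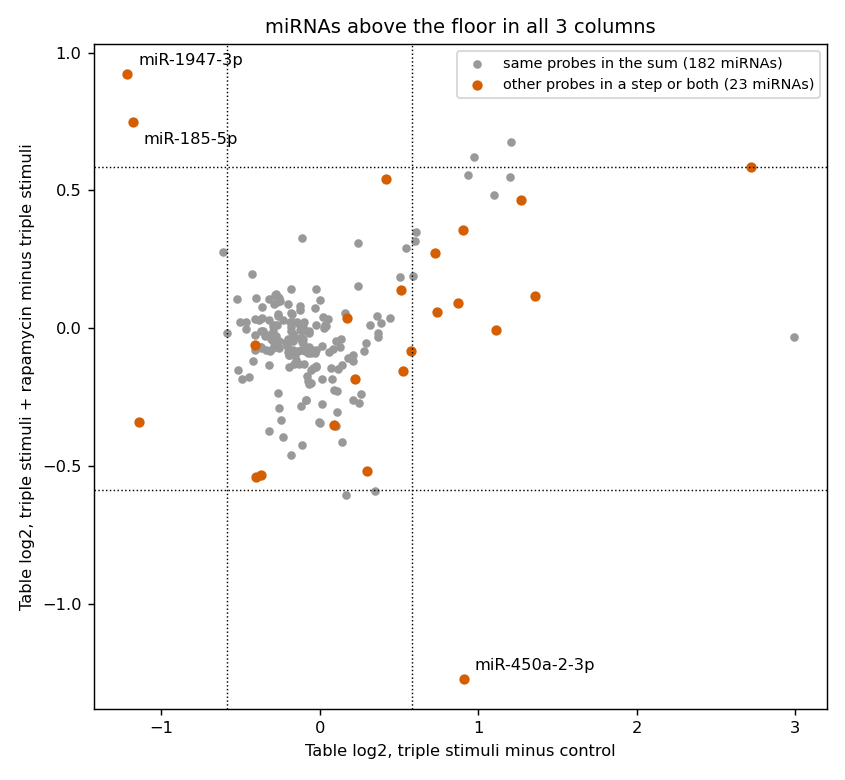
Table log2 difference of triple stimuli minus control (horizontal axis) and of triple stimuli plus rapamycin minus triple stimuli (vertical axis) for the 205 miRNAs above the floor in all 3 columns; dotted lines mark 1.5-fold. The 3 members, labelled, lie alone beyond the limits in the upper left and lower right corners, and belong to the 23 miRNAs whose summed probes changed.

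In single steps the background was as follows. With triple stimuli against control, 5.7% of 228 table miRNAs were lower and 14% of them higher by 1.5-fold. With rapamycin against triple stimuli, 9.01% of 233 were higher and 4.29% of 233 lower. The rule used these contrasts, so the members' place among them is given as description.

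Spot signals were read next, after each array had been divided by the 75th percentile of those probes that passed detection on every array. Each probe of miR-185-5p and miR-1947-3p was printed 20 times on an array, and each of miR-450a-2-3p 10 times. Detection of a probe required that a share of 0.5 or more of its unflagged spots stood well above background. The 17-base probe of miR-185-5p was detected on all 6 arrays, and the other 7 probes of the members on none. The spots of negative control probes averaged 3.88 to 4.29 by array before scaling, and 99% of them lay below 14.8 to 15.4.

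The 17-base probe of miR-185-5p had a scaled signal of 26.8 ± 1.33 (SE over spots) with triple stimuli plus rapamycin, 25.5 ± 0.969 with triple stimuli, 28.0 ± 0.980 in hypoxia, 30.2 ± 1.45 in palmitate, 29.8 ± 1.23 in high glucose and 31.6 ± 1.34 in the control. Triple stimuli minus control was log2 -0.31 (spot SE 0.08), and rapamycin minus triple stimuli 0.07 (spot SE 0.09). The first difference exceeded 2 spot SE and the second was within 1. In units of signal, the triple stimuli difference was -1.46 (spot SE 1.53) with no scaling between arrays. It was -2.01 (spot SE 1.83) on the even-numbered spots alone and -7.45 (spot SE 3.83) with flagged spots kept, each within 2 spot SE. Other settings lay beyond 2 spot SE. The difference was -8.52 (spot SE 1.59) with scaling over all probes and -9.29 (spot SE 1.64) with median scaling. It was -9.99 (spot SE 2.53) on odd-numbered spots and -5.92 (spot SE 1.65) with the median of spots. Quantile normalisation gave -9.98 (spot SE 1.53) and normexp -15.1 (spot SE 2.33). Triple stimuli plus rapamycin minus control was log2 -0.24 (spot SE 0.09), and hypoxia minus control -0.17 (spot SE 0.08). Neither reached 1.5-fold. At spot level 0% of 160 miRNAs were lower with triple stimuli by 1.5-fold, against 5.62% higher, and with rapamycin 2.21% of 181 were higher and 1.66% lower.

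The 16-base probe of miR-185-5p, not detected by the spot rule, read 14.5 ± 1.601 with triple stimuli plus rapamycin, 13.98 ± 0.446 with triple stimuli, 19.9 ± 1.27 in hypoxia, 18.6 ± 1.86 in palmitate, 16.2 ± 0.970 in high glucose and 21.0 ± 1.74 in the control. The control was the highest of the 6 arrays. Against it, triple stimuli plus rapamycin differed by -6.43 (spot SE 2.36), triple stimuli by -6.98 (spot SE 1.80) and high glucose by -4.78 (spot SE 1.99). Rapamycin minus triple stimuli was 0.548 (spot SE 1.66). For triple stimuli, 4 of its 20 spots were flagged as outliers, against 0 on each of the other 5 arrays. The 16-base probe is the one whose crossing of the limit changed the table sum. Its values therefore describe the table shift and are no separate evidence for it.

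miR-1947-3p had probe means of 13.2 to 17.2 before scaling, near the 99% limit of single negative control spots. It stood above the mean of those control spots, 3.88 to 4.29 by array. Its 14-base probe read 15.3 ± 0.982 with triple stimuli plus rapamycin, 12.9 ± 1.16 with triple stimuli and 17.2 ± 1.31 in the control. Its 15-base probe read 14.3 ± 0.819, 16.2 ± 0.938 and 17.1 ± 0.983 on the same arrays. In the rapamycin step the probes shifted in opposite directions, by 2.38 (spot SE 1.52) for the 14-base and -1.90 (spot SE 1.25) for the 15-base probe, both within 2 spot SE. In the triple stimuli step the 14-base probe differed by -4.30 (spot SE 1.75) and the 15-base probe by -0.838 (spot SE 1.36). The 14-base probe is the one that crossed the limit in the table, so its values are no separate evidence for the table shift. Of the 20 spots of the 15-base probe, 9 were flagged with triple stimuli, against 0 to 4 on the other arrays.

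No probe of miR-450a-2-3p was detected by the spot rule. The means of the 19-base and 20-base probes, 11.5 to 20.1 before scaling, lay on either side of the 99% limit of single negative control spots. The 17-base probe ran from -2.34 to 0.337 and the 18-base probe from -1.94 to 0.705 over the 6 arrays, below the mean of the negative controls. The 20-base probe read 12.4 ± 0.903 with triple stimuli plus rapamycin, 19.6 ± 1.17 with triple stimuli, 17.9 ± 1.21 in hypoxia, 14.2 ± 1.43 in palmitate, 14.2 ± 1.12 in high glucose and 14.7 ± 1.77 in the control. Triple stimuli was above the control by 4.88 (spot SE 2.12), and rapamycin minus triple stimuli was -7.21 (spot SE 1.48). The 19-base probe read 13.997 ± 2.11, 15.4 ± 0.994 and 17.0 ± 2.35 with triple stimuli plus rapamycin, triple stimuli and in the control, with differences of -1.53 (spot SE 2.55) and -1.44 (spot SE 2.33). The 20-base probe is the one whose crossing of the limit gave the table its shift on these same arrays, so its values are a description of that shift and no separate evidence for it.

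**Figure D5:**
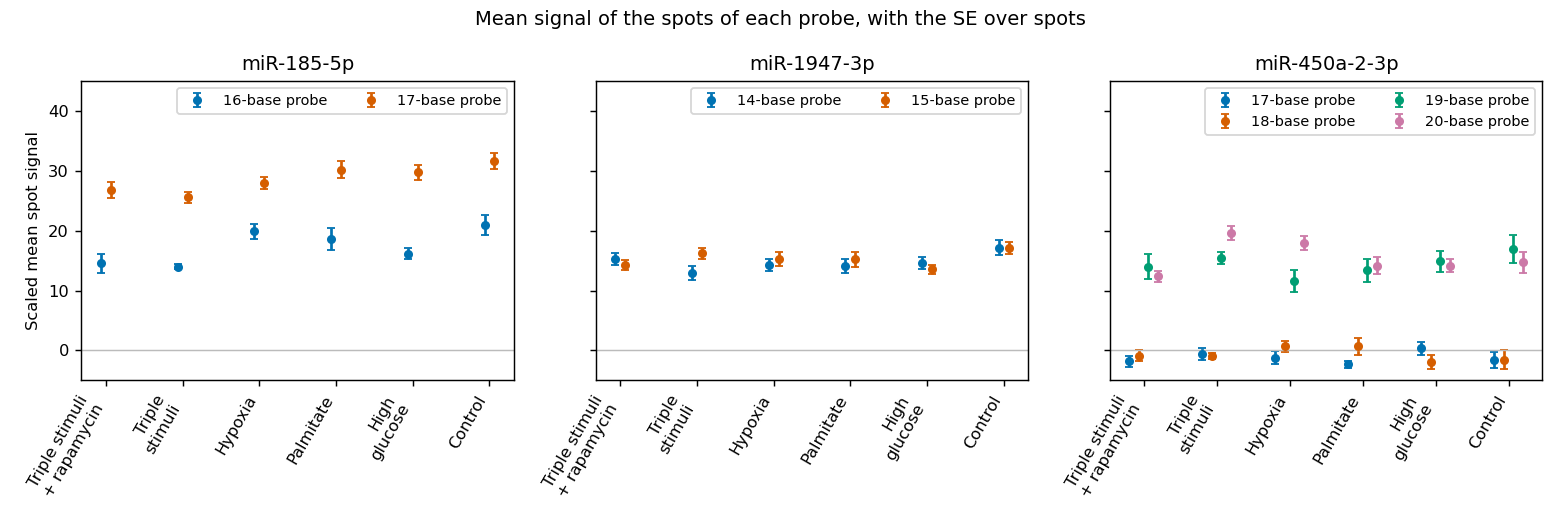
Mean processed signal of the spots of each probe (vertical axis), scaled between arrays, on the 6 arrays; error bars are the SE over spots within an array. For miR-185-5p the triple stimuli plus rapamycin and triple stimuli arrays lie together below the control, at 26.8 and 25.5 against 31.6 for the 17-base probe; for miR-450a-2-3p the 20-base probe is highest with triple stimuli, at 19.6.

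A spot SE holds no spread between arrays, and many probes of the array differed by more than 2 spot SE. Of the 6 member probes that entered a sum on at least 1 array, 4 did so in the triple stimuli step, beside 60.8% of all 464 such probes, and 1 in the rapamycin step, beside 49.6%. Among the 464, 23.9% were lower and 36.9% higher with triple stimuli than in the control by more than 2 spot SE. With rapamycin, 39.2% were lower and 10.3% higher than with triple stimuli. The 20-base probe of miR-450a-2-3p ranked 74 of 464 from the lowest in the rapamycin step, in units of its spot SE.

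The neighbours of the members on their hairpins gave little signal. The other arms miR-185-3p and miR-1947-5p, and the neighbouring miR-450a-1-3p, were at the floor of all 6 columns. miR-450a-5p, the 5′ arm of the same hairpin as miR-450a-2-3p and also of Mir450-1, was above the floor with triple stimuli alone, at a table value of 0.159. Its summed signal was 6.45 ± 1.85 with triple stimuli plus rapamycin, 6.49 ± 1.91 with triple stimuli, 6.45 ± 1.89 in hypoxia, 4.50 ± 1.93 in palmitate, 4.50 ± 1.94 in high glucose and 4.31 ± 1.86 in the control. These unscaled sums differed between arrays by about the size of the error, and triple stimuli and triple stimuli plus rapamycin differed by less than that error.

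Of the 12 other miRNAs of the miR-450 cluster on the X chromosome, 4 were called detected by the software on at least 1 array, as were 240 of all 1247 miRNAs (19.2%). miR-322-5p was detected on all 6. miR-322-5p, which represses cyclins and other drivers of the cell cycle, had summed signals of 46.6 ± 3.77 with triple stimuli plus rapamycin, 46.9 ± 3.83 with triple stimuli, 50.2 ± 4.02 in hypoxia, 32.9 ± 3.02 in palmitate, 38.0 ± 3.33 in high glucose and 31.5 ± 2.92 in the control. These sums carry no scaling between arrays, and oxygen cannot be told apart from the row of the slide. In the table, where the 2 probes of miR-322-5p were summed throughout, its steps were 0.21 for triple stimuli minus control and -0.10 for rapamycin minus triple stimuli. miR-503-5p had steps of -0.37 and -0.0092. These 2 had values in all 3 columns, 0 of them past 1.5-fold, with medians of -0.08 and -0.05 beside -0.10 and -0.04 over the 205 miRNAs. The miRNAs that share the seed of miR-1947-3p, miR-674-5p and miR-3473d, were at the floor in every column.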

How the data were processed

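Agilent Feature Extraction 10.7.3.1 turned the scans into spot values, per the submitters' processing notes and the file headers, which name background subtraction, outlier flags and sums per probe and per miRNA. The deposited spot and summed values are linear intensity that carries no scaling across arrays. The authors' deposited table holds a linear signal per miRNA; no label or header says how it was made, and its rule was rebuilt from the scanner files. Unflagged spots were averaged per probe and divided by each array's 75th percentile, taken across 281 probes that every array detected. The brightest probe stood for a miRNA; a call at spot level needed detection on both arrays, 1.5-fold and more than 2 spot SE. No spot was saturated. With 1 array per condition there is no p-value, and errors cover spots within an array or the software's error model; the number of arrays limits the precision. Alternatives included other scalings, normexp (limma 3.58.1, R 4.3.3) and other spot or probe choices. The spot-level call and the table rule were run on simulated data. For the table rule, these were built with the same rule and limit, so its recovery was fixed in advance and tests nothing. For the call, these held no background and were mostly brighter than the member probes, so they do not test it at the members' signal. Members, lists and alternatives were chosen with earlier results of these data known. Other miRNAs were named as hairpin, cluster or seed partners, as the most similar over the arrays, or as opposite in the table.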

Additional observations from a re-analysis of the deposited data

How the results depend on the processing

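The spot-level differences below are of the brightest probe, in units of scaled signal, and values of the table or the software's sum were brought to the same mean over the 3 arrays. For triple stimuli minus control, miR-185-5p (-6.08) was -8.52 with scaling over all probes, -9.29 with median scaling, -1.46 with no scaling (spot SE 1.53), -9.98 with quantile normalisation, -15.1 with normexp, -9.99 on odd-numbered and -2.01 on even-numbered spots (spot SE 1.83), -8.57 by the software's sum and -21.4 in the table. With flagged spots kept, miR-185-5p was -7.45 (spot SE 3.83). miR-1947-3p (-0.84) was -2.40 with scaling over all probes, -2.76 with median scaling, 1.71 with no scaling, -12.2 with normexp, -3.03 with flagged spots kept, -2.89 by the sum, -12.04 in the table, -2.57 as the mean of probes, -4.30 on the 14-base probe, and 0.012 on odd-numbered and 0.031 on even-numbered spots. miR-450a-2-3p (4.88) turned to -4.35 with normexp and to -1.53 on the 19-base probe. It was 7.22 with no scaling, 2.23 by the sum, 11.3 in the table, 1.22 as the mean of probes, and 0.981 and 0.557 on the 17-base and 18-base probes.

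For rapamycin minus triple stimuli, miR-185-5p (1.23) was 5.23 with scaling over all probes, 4.07 with no scaling, -3.47 with normexp, 3.62 on odd-numbered spots, 4.05 by the sum and 11.5 in the table. miR-1947-3p (-1.90) was 0.491 with scaling over all probes, -0.445 with no scaling, -5.98 with normexp, -0.110 with the median of spots, -0.513 on odd-numbered and -3.78 on even-numbered spots, 1.97 by the sum, 8.16 in the table, 0.240 as the mean of probes and 2.38 on the 14-base probe. miR-450a-2-3p (-7.21) turned to 0.123 on the 18-base probe. It was -4.58 with scaling over all probes, -5.59 with quantile normalisation, -12.04 with normexp, -3.61 by the sum, -14.1 in the table, -2.43 as the mean of probes, and -1.20 and -1.44 on the 17-base and 19-base probes. Leaving out the table, which chose the members, alternatives were counted by whether they kept the direction of the brightest probe. In the triple stimuli step 12 of 12 did for miR-185-5p, 9 of 12 for miR-1947-3p and 12 of 14 for miR-450a-2-3p. In the rapamycin step 11 of 12, 8 of 12 and 13 of 14 did. For miR-1947-3p in the rapamycin step that direction, -1.90, was opposite to the table's 8.16, so these 8 ran against the table shift. All alternatives reread the same spots that gave the table its values, so the counts describe the processing and are no separate evidence for the shifts. The offset of 50 in normexp is multiplied by each array's scale, which moves all dim probes. Exchanging the high glucose and palmitate labels gave -1.85 for miR-1947-3p in high glucose minus control, against -3.45 with the deposited labels.

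Chosen after seeing the data, the table's rule was rerun with other limits. With probes of at least 2 errors the triple stimuli step was -0.55, -0.37 and 0.0097 (log2) for miR-185-5p, miR-1947-3p and miR-450a-2-3p, and the rapamycin step 0.12, 0.078 and -0.35. With all probes they were -0.55, -0.37 and 0.093, and 0.12, 0.078 and -0.44. A limit of 4 errors left values for miR-185-5p alone, -0.44 and 0.12. The count of 11 opposite miRNAs was 3 above the floor in all 3 columns, and 8 by the software's sum with the floor or at 2-fold. Spot-level calls, 9 for triple stimuli and 7 for rapamycin, were 20 with no scaling (triple stimuli), 4 and 2 with normexp, and 3 and 0 at 2-fold. By direction, 9 were higher and 0 lower with triple stimuli, and 4 higher and 3 lower with rapamycin; the all-probe scaling made this 5 and 2, and 9 and 0. No paired analysis was possible because each condition had 1 array. Signal over background also limits miR-1947-3p and miR-450a-2-3p, none of whose probes was detected at spot level.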

Other observations

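The miRNAs most like each member were sought by Pearson's r of the summed signal over the 6 arrays, among 237 others that the software detected on at least 1 array. For miR-185-5p they were miR-149-5p (0.87), miR-700-3p (0.84) and miR-30c-5p (0.77). For miR-1947-3p they were miR-331-3p (0.92), miR-652-3p (0.88) and miR-132-3p (0.88), and for miR-450a-2-3p miR-19a-3p (0.93), miR-378a-3p (0.91) and miR-5117-3p (0.91). These are descriptions over 6 unreplicated and unscaled arrays, which share their overall brightness. The highest of 237 correlations over 6 points are high in any case.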
